A study of Homo sapiens with 7 samples.

Results

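TNF superfamily ligands were analysed in RH30 cells, an established cell line of alveolar rhabdomyosarcoma (RMS), with and without the Smac mimetic BV6. They were 10 of the 57189 genes with counts: TNF, LTA, LTB, FASLG, TNFSF10, TNFSF9, TNFSF12, TNFSF13B, TNFSF15 and TNFSF4. They were listed by name, with earlier results of these data known. The study asked how BV6, a small molecule that mimics the mitochondrial protein Smac and makes RMS cells lose inhibitor of apoptosis proteins (IAPs), changes these tumor cells. Poly(A)-selected RNA was sequenced from 4 untreated samples and from 3 samples kept with BV6 at 5 µM over 24 h. All 7 samples were RH30 cells with the genotype given as wt, in the same complete growth medium, so a single cell line stands for the tumor. The study's methods describe its RH30 cells as carrying GFP and luciferase throughout, which the sample titles do not mention. BV6 replicates 2, 3 and 4 carried the same experiment label (BC13, BC14 and BC25/27) as untreated replicates 2, 3 and 4, and untreated replicate 1 (BC11) had no BV6 partner. The study describes the replicates as biological, and the labels do not say how the cultures were kept apart.

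Ligands of the TNF superfamily are made as trimeric membrane proteins, and several are cut from the cell surface to act at a distance. They bind receptors of the TNF receptor superfamily on the same or on neighboring cells and, through TRAF proteins and cellular IAPs, activate NF-κB, or through death domains activate caspases. Many are best known from leukocytes, and in tumor cells exposed to Smac mimetics TNF made by the cells themselves is a known trigger of cell death.

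The RNA of all 10 ligands was low in every sample, and most of their counts were close to the detection limit. Libraries held between 54070030 and 77220882 counts, and 3 counts, taken here as the lowest number that shows detection, corresponded to 0.0389 to 0.0557 CPM, the usual scaling of counts to library size. No ligand exceeded 44 counts in any sample. The counts furthest above the limit were those of TNFSF4 with BV6 (23 to 44), LTB in untreated replicate 1 (26) and TNFSF15 in BV6 replicate 3 (24). Summed over the 10 ligands, untreated replicates 1 to 4 held 85, 52, 58 and 81 counts and BV6 replicates 2 to 4 held 69, 114 and 73 counts. These sums overlapped between the groups, and BV6 replicate 3 held the most. Between 6 and 9 of the 10 ligands reached 3 counts in a sample. Genes at 2 counts outnumbered genes at 1 count in all 7 samples (3211 to 3389 against 1765 to 2235 genes), and between 57.9% and 61.7% of the counts from 1 to 20 were even. Every count total also exceeded the largest number of reads per library that the study's methods state, by close to what counting both mates of a pair would give. A count may thus stand for less than 1 independent molecule, and 3 counts for fewer than 3 fragments.

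The label of the cells was checked against fixed markers. MYOD1, the master regulator of myogenesis that RMS cells express, had 344 ± 86.9 CPM (SD, n = 4) in untreated cells, and the intermediate filament DES had 768 ± 114 CPM (SD, n = 4). Of 10 RMS markers, all passed the filter on low counts and 0 passed the test in either direction, with a median log2 fold change of -0.45 and 9 of 10 below 0. Of 16 leukocyte markers, 10 passed the filter and 0 passed the test in either direction. Their summed level was 24.2 to 30.8 CPM in untreated and 20.7 to 37.6 CPM in BV6 samples, and none was at 0 in all samples. Most of that sum came from CSF1R (12.7 CPM in untreated and 14.4 CPM in BV6 samples) and NKG7 (9.79 and 6.82 CPM), whereas PTPRC, which defines leukocytes, had 58, 16, 15 and 14 counts in untreated and 45, 24 and 11 counts in BV6 samples. Summed endothelial markers (6 genes, 4 passed the filter, 0 passed the test) reached 51.7 to 73.4 CPM in untreated and 28.6 to 59.9 CPM in BV6 samples. Most of the endothelial sum came from PECAM1 (59.3 CPM in untreated and 40.2 CPM in BV6 samples). CLDN5 had 2.61 and 1.54 CPM, VWF 0.817 and 1.48 CPM, and CDH5, KDR and TEK were lower. Summed epithelial markers (6 genes, 2 passed the filter, 0 passed the test) reached 0.763 to 1.09 CPM in untreated and 0.929 to 1.16 CPM in BV6 samples. The part of such RNA in the ligand counts was not tested. In these bulk samples, fewer cells that make a ligand and less RNA of it per cell cannot be told apart.

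The promoters of TNFSF4, TNF, LTA and LTB are shown beside that of NFKBIA, an NF-κB target that rose with BV6. In edgeR, 6 of 14 tested NF-κB targets and 0 of 3 tested ligands passed, against 0.45% of all tested genes. With so few ligands tested, their share does not set them apart from other genes, and TNF did not pass the filter. Whether promoter sequence bears on the expression values was not tested. Each run holds 300 bases of RefSeq sequence (GRCh38.p14), from 250 bases before to 50 bases after the annotated start, written 5′ to 3′ on the strand of the gene. Capitals mark matches to the NF-κB consensus of 10 bases, searched on both strands, with overlapping matches joined. This search, the NFKBIA promoter and the set of NF-κB targets beside it were chosen after the expression values had been seen.

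TNFSF4 (chr1:173205483-173205782, minus strand): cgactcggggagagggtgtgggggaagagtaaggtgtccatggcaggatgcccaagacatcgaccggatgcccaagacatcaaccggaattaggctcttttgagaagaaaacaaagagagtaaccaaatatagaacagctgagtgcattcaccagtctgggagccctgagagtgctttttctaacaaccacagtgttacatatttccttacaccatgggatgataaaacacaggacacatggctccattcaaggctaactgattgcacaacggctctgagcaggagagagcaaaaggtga
TNF (chr6:31575315-31575614, plus strand): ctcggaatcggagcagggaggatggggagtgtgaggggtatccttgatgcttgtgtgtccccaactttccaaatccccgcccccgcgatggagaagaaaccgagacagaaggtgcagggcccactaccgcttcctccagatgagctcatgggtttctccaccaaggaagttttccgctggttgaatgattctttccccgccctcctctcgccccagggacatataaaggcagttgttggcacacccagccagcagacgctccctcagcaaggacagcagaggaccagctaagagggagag
LTA, second listed start (chr6:31572039-31572338, plus strand): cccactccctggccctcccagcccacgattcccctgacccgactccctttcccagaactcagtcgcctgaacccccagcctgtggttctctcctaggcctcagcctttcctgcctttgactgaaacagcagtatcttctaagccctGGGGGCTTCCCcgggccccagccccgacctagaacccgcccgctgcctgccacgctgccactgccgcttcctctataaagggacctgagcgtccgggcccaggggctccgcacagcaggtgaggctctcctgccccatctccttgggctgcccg
LTB, first listed start (chr6:31582376-31582675, minus strand): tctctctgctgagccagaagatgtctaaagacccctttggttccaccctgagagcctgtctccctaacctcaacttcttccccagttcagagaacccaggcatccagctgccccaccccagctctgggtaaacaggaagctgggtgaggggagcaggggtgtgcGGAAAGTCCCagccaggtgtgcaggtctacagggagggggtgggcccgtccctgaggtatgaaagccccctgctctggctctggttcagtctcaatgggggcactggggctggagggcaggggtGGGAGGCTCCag
NFKBIA (chr14:35404700-35404999, minus strand): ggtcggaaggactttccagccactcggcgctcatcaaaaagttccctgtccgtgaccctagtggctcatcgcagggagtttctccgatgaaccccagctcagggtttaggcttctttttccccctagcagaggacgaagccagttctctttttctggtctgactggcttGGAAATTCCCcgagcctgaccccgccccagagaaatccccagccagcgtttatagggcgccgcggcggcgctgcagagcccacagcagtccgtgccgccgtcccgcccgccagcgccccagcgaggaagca

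Counting the first transcribed base as 0, matches began at -104 and -103 in LTA, at -86 and 38 in LTB, and at -81 in NFKBIA, the gene of the NF-κB inhibitor IκBα. The LTA matches belong to its second listed start, and the window of its first listed start, not shown, held none. The TNF and TNFSF4 windows held no exact match to this consensus. Of the 9 ligands with a RefSeq promoter, 2 (22.2%) had a match in any listed promoter, against 13.3% of all 27305 genes and 8 of 13 NF-κB target genes (61.5%). With the first listed promoter of each gene alone, as first counted, these shares were 1 of 9 ligands and 10.8% of all genes. TNFSF12 had no entry, and of the 16 NF-κB targets 13 had one. Of the 8 targets with a match, BIRC3, NFKB2, NFKBIA and TNFAIP3 rose with BV6 in edgeR. CD83 and VCAM1 did not pass the test, and CXCL10 and IL6 did not pass the filter. CCL5 and TRAF1, which also rose, were not among the 8. A match describes the letters and not a bound site. A window without a match can still hold sites that depart from the consensus, and the rest of the locus was not searched.

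**Figure D1:**
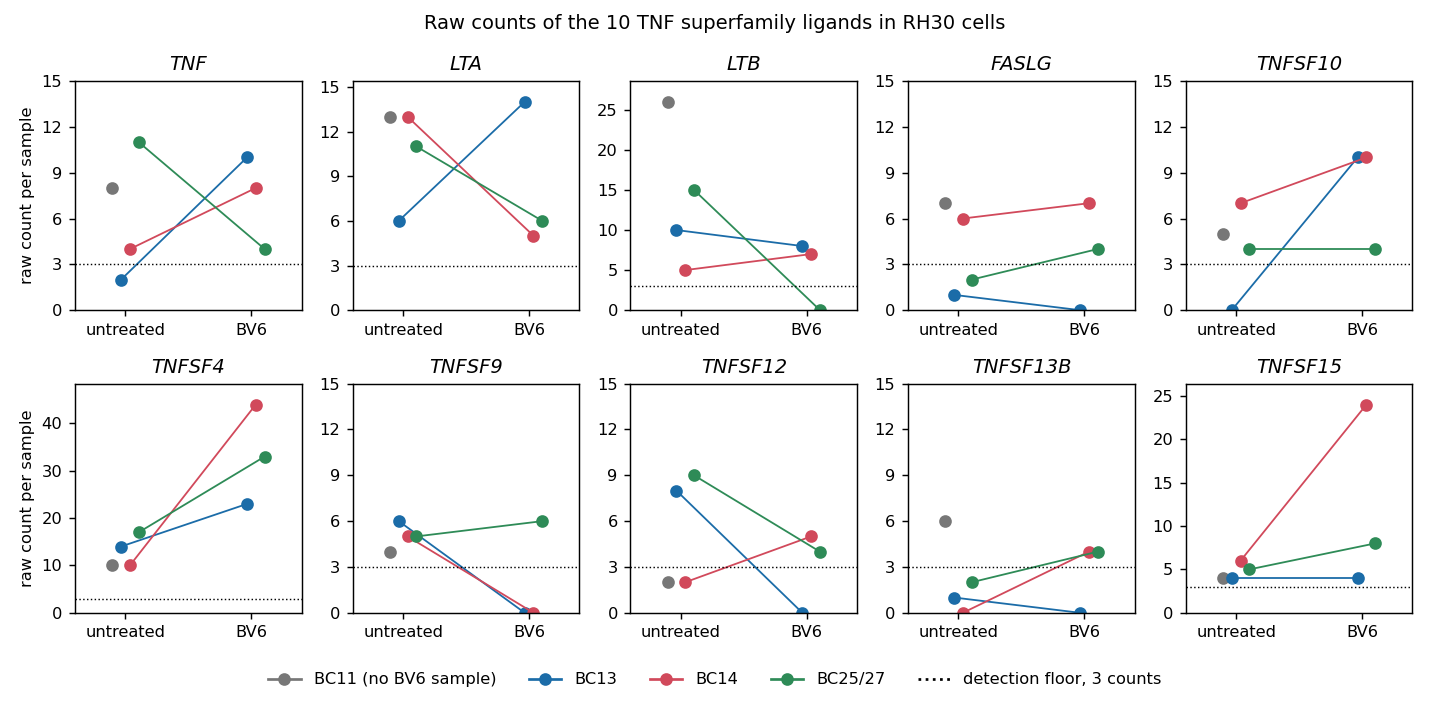
Raw counts (y axis, counts per sample, a separate scale for each gene) of the 10 ligands in untreated and BV6-treated RH30 cells (x axis). Each point is 1 sample, lines join samples with the same experiment label, the grey point is the untreated sample without a BV6 partner, and the dotted line marks 3 counts. TNFSF4 had 10 to 17 counts in untreated samples and 23 to 44 counts with BV6, whereas the points of the other 9 ligands overlapped.

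TNFSF4, which encodes OX40L, a costimulatory ligand for activated T cells, was the only ligand whose groups did not overlap. The gene lies on chromosome 1 from 173183731 to 173207331, minus strand (GRCh38, GENCODE 44, as for all positions of genes given here). Untreated replicates 1 to 4 had 10, 14, 10 and 17 counts, and BV6 replicates 2 to 4 had 23, 44 and 33 counts. All 3 BV6 samples were above all 4 untreated samples. The untreated mean was 0.205 ± 0.0684 CPM (SD, n = 4), and the mean with BV6 was 0.58 ± 0.157 CPM (SD, n = 3). Within experiments, the BV6 sample had 1.64 (BC13), 4.32 (BC14) and 2.23 times (BC25/27) the CPM of its untreated partner, thus it was higher in 3 of 3 pairs.

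The ratio of the summed counts was 2.92, with an exact 95% interval of 2.07 to 4.18, or 1.79 to 4.88 with counts halved. Halved counts were rounded up here and below. Such intervals cover counting error and not the spread between samples.

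The log2 fold change of TNFSF4 was 1.51 (SE 0.373), with an unadjusted p = 0.002606 and an adjusted p = 0.191 in the quasi-likelihood test of edgeR over 23124 genes, so the difference did not pass the threshold of 0.05. The exact two-sided permutation test on CPM gave p = 0.0571, which is the smallest p that 4 against 3 samples allow. Separation alone was not rare, as every BV6 sample exceeded every untreated sample in 4.94% of the tested genes. With the Wald test of DESeq2 on the same genes, TNFSF4 had an adjusted p = 0.0403, and over all alternatives the adjusted p ranged from 0.0403 to 0.501. The log2 fold change stayed between 1.32 and 1.71 under all of them.

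Only 3 of the 10 ligands (TNFSF4, LTA and LTB) passed the filter on low counts, which asks for about 0.168 CPM in at least 3 samples. TNFSF4 exceeded this level in 2 untreated and 3 BV6 samples, LTA in 3 and 1, and LTB in 3 and 0. LTB thus passed only through untreated samples, and TNFSF4 only with its BV6 samples, where it was higher. Without the filter, the adjusted p of TNFSF4 was 0.149 in edgeR and 0.0606 in DESeq2. Of the ligands tested, 0 passed an adjusted p of 0.05 in edgeR, against 0.45% of all tested genes, and 1 (TNFSF4) had an unadjusted p below 0.05, against 8.39% of all tested genes. With so few ligands tested, neither share sets them apart from other genes. In the fit without the filter, 2 of the 10 ligands (TNFSF4 and TNFSF15) had an unadjusted p below 0.05, against 6.64% of 43421 genes, and 0 passed after adjustment.

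TNF, LTA and LTB lie next to each other on chromosome 6. TNF, the prototype of the family and a ligand of TNFR1 and TNFR2, lies on chromosome 6 from 31575565 to 31578336, plus strand. Untreated replicates 1 to 4 had 8, 2, 4 and 11 counts of TNF, and BV6 replicates 2 to 4 had 10, 8 and 4 counts. The highest and the lowest count were both in untreated samples, and with BV6 TNF was higher in BC13 and BC14 and lower in BC25/27. The means were 0.0959 ± 0.0613 CPM (SD, n = 4) and 0.128 ± 0.052 CPM (SD, n = 3), and the exact two-sided permutation test gave p = 0.457. The BV6 to untreated ratio of the summed counts was 1.31, with an exact 95% interval of 0.705 to 2.42 that covers counting error only. A change in TNF RNA was not detectable at this depth.

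LTA encodes lymphotoxin-α, which is secreted and binds the TNF receptors, or joins lymphotoxin-β in a trimer for the receptor LTBR. It lies on chromosome 6 from 31572054 to 31574324, plus strand, 1.24 kb from TNF. Untreated replicates 1 to 4 had 13, 6, 13 and 11 counts and BV6 replicates 2 to 4 had 14, 5 and 6 counts. The groups overlapped, with the highest and the lowest count both in BV6 samples. The log2 fold change was -0.19 (SE 0.497), with an adjusted p = 0.937 in edgeR.

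LTB, the gene of the membrane-bound lymphotoxin-β, lies on chromosome 6 from 31580525 to 31582522, minus strand, 2.19 kb from TNF. It had 26, 10, 5 and 15 counts in untreated replicates 1 to 4 and 8, 7 and 0 counts in BV6 replicates 2 to 4. BV6 samples lay at the lower end, yet untreated replicate 3 was below 2 of them, and in BC14 the BV6 sample had the higher level. The log2 fold change was -1.28 (SE 0.761), with an unadjusted p = 0.126 and an adjusted p = 0.71 in edgeR. The ratio of the summed counts was 0.399 (exact 95% interval 0.21 to 0.715, with counts halved 0.162 to 0.922), and the interval excludes 1, while the edgeR test, which takes in the spread between samples, was not passed. The log2 fold change ranged from -1.85 to -0.73 over the alternatives and did not pass the test in any of them.

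The death ligands FASLG and TNFSF10 are used by cytotoxic lymphocytes to kill target cells. FASLG, the ligand of FAS, lies on chromosome 1 from 172659103 to 172666876, plus strand, and had 7, 1, 6 and 2 counts in untreated replicates 1 to 4 and 0, 7 and 4 counts in BV6 replicates 2 to 4. Its untreated level of 0.0601 ± 0.0411 CPM (SD, n = 4) compared with 0.0628 ± 0.0579 CPM (SD, n = 3) under BV6, a difference smaller than the spread. TNFSF10, which encodes TRAIL, lies on chromosome 3 from 172505508 to 172523475, minus strand. It had 5, 0, 7 and 4 counts in untreated replicates 1 to 4 and 10, 10 and 4 counts in BV6 replicates 2 to 4.

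TNFSF10 was at its highest in BV6 replicates 2 and 3, and BV6 replicate 4 had as many counts as its untreated partner. The means were 0.0614 ± 0.0476 CPM (SD, n = 4) and 0.139 ± 0.0561 CPM (SD, n = 3), with an exact two-sided permutation p = 0.114. The ratio of the summed counts was 2.23 (exact 95% interval 1.14 to 4.5). With counts halved and rounded up, as if both mates had been counted, it was 1.99 (0.768 to 5.34). The ratio itself moved through the rounding. The interval therefore includes no change once mates are allowed for in this way. In the edgeR fit without the filter the log2 fold change was 1.13 (SE 0.777), with an unadjusted p = 0.161.

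TNFSF15, which encodes TL1A, a ligand of DR3 known from endothelial cells, rested on a single sample. It lies on chromosome 9 from 114784652 to 114806039, minus strand, and had 4, 4, 6 and 5 counts in untreated replicates 1 to 4 and 4, 24 and 8 counts in BV6 replicates 2 to 4. The ratio of the summed counts was 2.82 (exact 95% interval 1.58 to 5.21, with counts halved 1.17 to 6.5). BV6 replicate 3 stood apart, and BV6 replicate 2 was at the level of untreated cells. The means were 0.0759 ± 0.0198 CPM (SD, n = 4) and 0.204 ± 0.167 CPM (SD, n = 3), with an exact two-sided permutation p = 0.229. Without the filter, edgeR gave a log2 fold change of 1.42 (SE 0.649), an unadjusted p = 0.0397 and an adjusted p = 0.721, and without BV6 replicate 3 the log2 fold change was 0.51.

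TNFSF9, which encodes the T-cell costimulator 4-1BBL, lies on chromosome 19 from 6531026 to 6535924, plus strand. It had 4, 6, 5 and 5 counts in untreated replicates 1 to 4 and 0, 0 and 6 counts in BV6 replicates 2 to 4. Replicates 2 and 3 with BV6 were thus below all untreated samples, and replicate 4 with BV6 was at the untreated level. The ratio of the summed counts was 0.447 (exact 95% interval 0.147 to 1.15), and the exact two-sided permutation test gave p = 0.286. Without the filter, the log2 fold change of edgeR was -1.12, and -5.35 without BV6 replicate 4, where both remaining BV6 samples are at 0 and the fitted value is no bound.

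TNFSF12, the gene of TWEAK, which acts through the receptor Fn14 in muscle and other tissues, lies on chromosome 17 from 7548508 to 7557890, plus strand. It had 2, 8, 2 and 9 counts in untreated replicates 1 to 4 and 0, 5 and 4 counts in BV6 replicates 2 to 4. BV6 replicate 2 was the only sample at 0, the other BV6 samples lay within the untreated range, and the exact two-sided permutation test gave p = 0.457. TNFSF12 counts are uncertain, since 553 of its exonic bases are also exons of the readthrough gene TNFSF12-TNFSF13, which had 58, 77, 55 and 43 counts in untreated and 33, 47 and 32 counts in BV6 samples. How reads shared by both genes were assigned is not given in the sources used here.

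TNFSF13B, which encodes the B-cell survival factor BAFF, lies on chromosome 13 from 108251240 to 108308484, plus strand. It had 6, 1, 0 and 2 counts in untreated replicates 1 to 4 and 0, 4 and 4 counts in BV6 replicates 2 to 4. In 4 of the 7 samples it was under 3 counts, and the groups overlapped. No fold change could be told from the counting error, as the ratio of the summed counts was 1.32 with an exact 95% interval of 0.445 to 3.87.

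**Figure D2:**
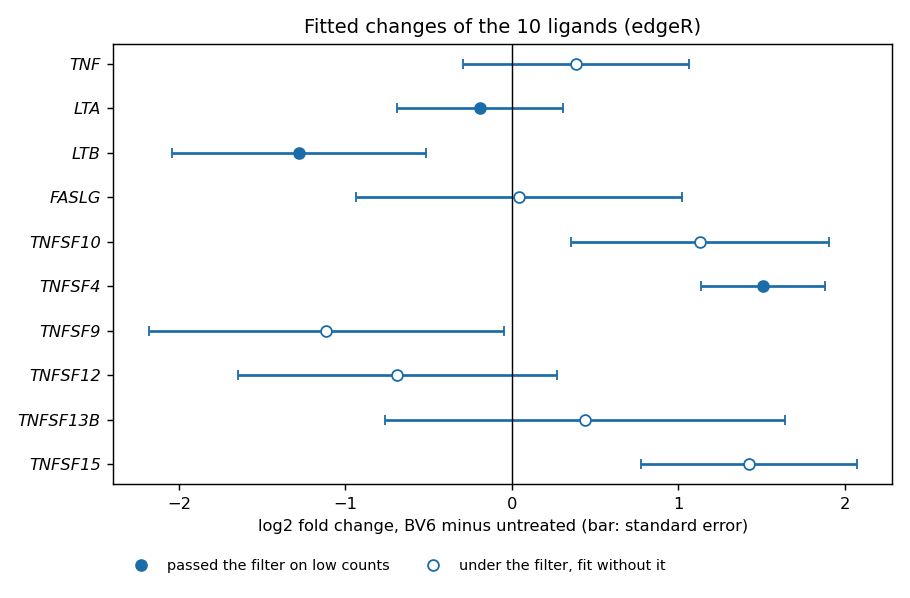
Log2 fold change (x axis, BV6 minus untreated) of each ligand (y axis) from the edgeR fit, with bars of 1 standard error; filled points passed the filter on low counts and open points come from the fit without it. TNFSF4 lies at 1.51, LTA at -0.19 and LTB at -1.28, and the standard errors of the ligands below the filter reach 1.2.

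Per length, the ligands stood in a loose order. Expressed as CPM per kilobase of annotated exons, LTB had the highest level of the 10 in untreated cells (0.137 ± 0.0698, SD, n = 4), followed by LTA (0.0963 ± 0.026) and TNF (0.0572 ± 0.0366). TNFSF4 (0.0517 ± 0.0173) and TNFSF9 (0.0494 ± 0.0138) came next, and TNFSF15 was the lowest (0.00975 ± 0.00255). Only the step from LTA to TNF exceeded the larger SD of the neighboring pair, and the other 8 steps did not. The last place of TNFSF15 depended on its exon length of 7.79 kb. In untreated CPM, TNFSF15 (0.0759) was above TNFSF10 (0.0614), FASLG (0.0601) and TNFSF13B (0.032). With BV6, TNFSF4 stood first at 0.146 ± 0.0395 CPM per kilobase (SD, n = 3), above LTA at 0.0849 ± 0.0515, and LTB stood below TNF at 0.0557 ± 0.0491. In BV6 samples the step from TNFSF4 to LTA alone exceeded the larger SD of its pair.

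The other ligands of the superfamily (8 listed, all with counts in some sample) were similarly low apart from TNFSF13 and EDA, which were the only ones to pass the filter. Per length, TNFSF13, which encodes APRIL, had 0.58 CPM per kilobase in untreated and 0.458 in BV6-treated cells, and EDA, the ectodysplasin gene, had 0.317 and 0.325. Both were above the means of all 10 ligands analysed here. The level of TNFSF13 is uncertain, since 1263 of its 2276 exonic bases are also exons of TNFSF12-TNFSF13. Neither passed the test in either direction, with log2 fold changes of -0.34 and 0.04.

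**Figure D3:**
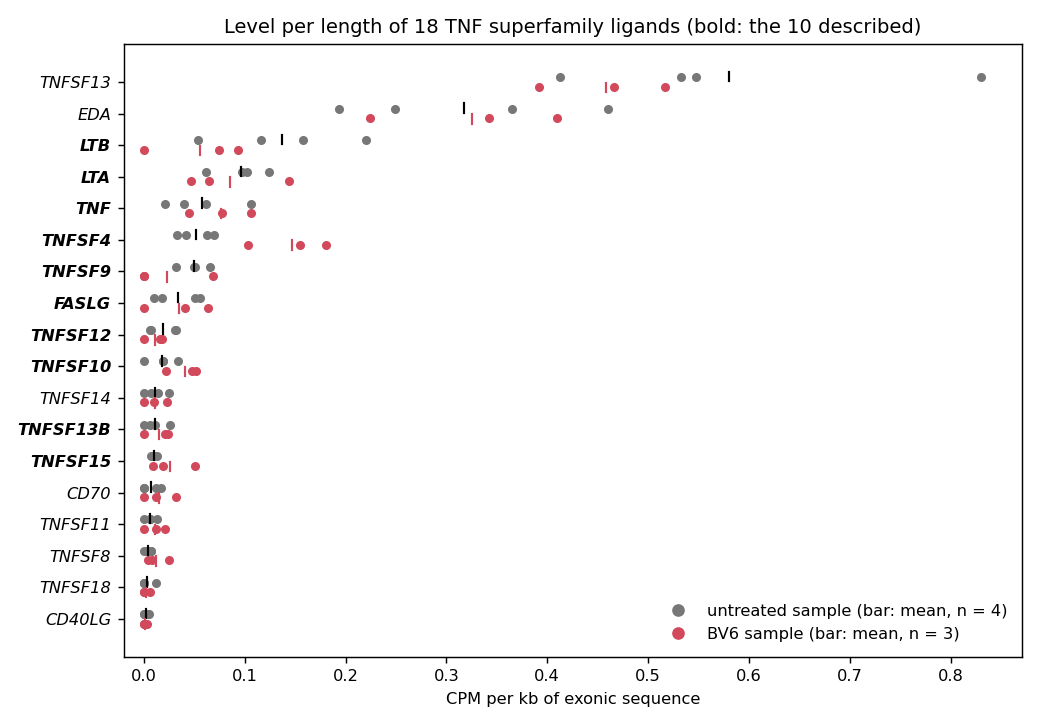
Level per length (x axis, CPM per kilobase of exons, linear scale) of the 10 ligands and the 8 other ligands of the superfamily in untreated and BV6-treated RH30 cells. Points are single samples and short bars are group means (n = 4 and n = 3). TNFSF13, which shares exons with TNFSF12-TNFSF13, and EDA have the highest means, at 0.58 and 0.317 CPM per kilobase in untreated cells, above LTB at 0.137.

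Several receptors were far more abundant than their ligands. Per length, TNFRSF12A (Fn14) had 50.4 CPM per kilobase in untreated cells against 0.019 for its ligand TNFSF12, TNFRSF10B (DR5) 21.8 against 0.0179 for TNFSF10, and TNFRSF1A (TNFR1) 15 against 0.0572 for TNF. FAS had 0.285 CPM in untreated cells, beside 0.0601 CPM for FASLG, but per kilobase 0.00972 beside 0.0333. This order turned with the scale, because the annotated isoforms of FAS span 29.3 kb of exons, so FAS and FASLG are not ranked. Of 18 receptors, 14 passed the filter, 1 rose with BV6 and 0 fell, where 0.45% of all tested genes were called in either direction. Their median log2 fold change was -0.10 beside -0.01 over all tested genes.

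The receptor that rose was TNFRSF9, which encodes 4-1BB, the receptor of TNFSF9. It had 189, 223, 106 and 253 counts in untreated replicates 1 to 4 and 1375, 921 and 1496 counts in BV6 replicates 2 to 4. The groups were well apart, with 3.07 ± 1.15 CPM (SD, n = 4) and 22.4 ± 6.63 CPM (SD, n = 3), and edgeR gave a log2 fold change of 2.87 (SE 0.318, adjusted p = 0.005737). TNFSF9 itself had between 0 and 6 counts in these samples. For TNFSF4, the receptor TNFRSF4 (OX40) had 12, 4, 4 and 8 counts in untreated and 7, 8 and 10 counts in BV6 samples and did not pass the filter. TNFRSF10B had a log2 fold change of 0.47 with an adjusted p = 0.156 in edgeR.

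Genes that act on the ligands after transcription, or on their mRNA, were also counted. Of 8 genes for the cutting and maturation of the ligands, all passed the filter, 0 rose and 0 fell in edgeR, with a median log2 fold change of 0.11. ADAM17, the protease that releases TNF from the membrane, had a mean of 39.3 ± 4.86 CPM (SD, n = 4) without BV6 and of 45.7 ± 3.98 CPM (SD, n = 3) with it. In this list the intramembrane protease SPPL2A (log2 fold change 0.29) and RHBDF2, a partner of ADAM17 (1.05), came closest, with an adjusted p of 0.516 and 0.557 in edgeR. Of 10 regulators of mRNA decay, all passed the filter and 0 passed the test in edgeR, with a median log2 fold change of 0.06. Here ZFP36L1 (log2 fold change 0.33) and ZFP36L2 (0.26), both of which bind AU-rich elements, came closest, with an adjusted p of 0.609 and 0.681 in edgeR. As 0.45% of all tested genes were called, the absence of a call in lists of this size does not set them apart.

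Among genes downstream of the ligands, some rose with BV6 and most did not pass the test, where 0.45% of all tested genes passed in either direction. Of 16 genes of the TNF receptor signaling complex, all passed the filter, 3 rose and 0 fell, with a median log2 fold change of 0.14. BIRC3, which encodes cIAP2, rose by a log2 fold change of 4.86 (SE 0.451, adjusted p = 0.003411 in edgeR). Its mean was 2.44 ± 1.57 CPM (SD, n = 4) without and 70.4 ± 27.4 CPM (SD, n = 3) with BV6. The adaptor TRAF1 rose by 3.58 (adjusted p = 0.003411 in edgeR) and BIRC2, the gene of cIAP1, by 1.54 (adjusted p = 0.02689 in edgeR). Among 16 NF-κB target genes that TNF is known to induce, 14 passed the filter, 6 rose and 0 fell, and the median log2 fold change was 0.88. The 6 were CCL5, BIRC3, TRAF1, NFKBIA, NFKB2 and TNFAIP3, with log2 fold changes of 4.72, 4.86, 3.58, 2.17, 1.67 and 0.86, and without untreated replicate 4 the number was 3. BIRC3 and TRAF1 belong to both lists.

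**Figure D4:**
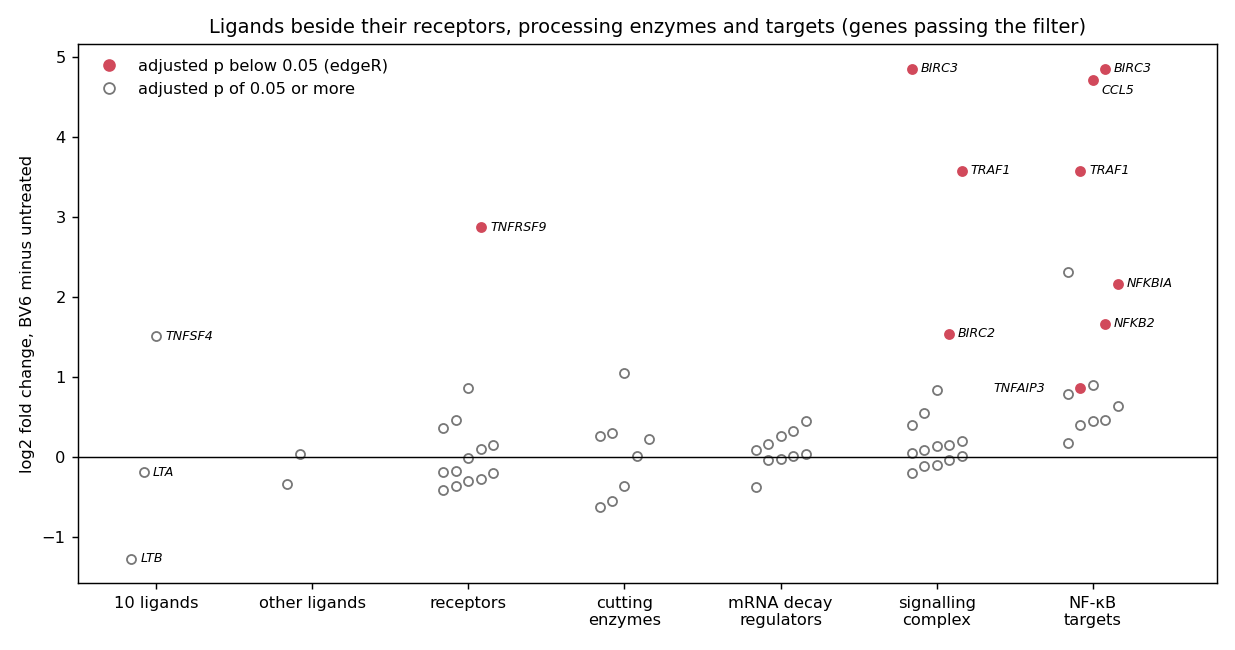
Log2 fold change (y axis, BV6 minus untreated) of the genes that passed the filter, for the ligands and each list of genes around them (x axis). Red points have an adjusted p below 0.05 in edgeR and open points do not, and BIRC3 and TRAF1 appear in both lists on the right. The 3 ligands tested are open points from -1.28 to 1.51, and 6 of 14 NF-κB targets are red, up to 4.86. Over all tested genes, 0.45% passed.

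Within 50 kb of a ligand, 42 genes had counts, 28 passed the filter and 0 passed an adjusted p of 0.05 in edgeR, against 0.45% of all tested genes. An unadjusted p below 0.05 was found for 2 of them, ATP6V1G2 beside TNF, LTA and LTB, and CD68 beside TNFSF12, against 8.39% of all tested genes. Both counts were near those of all genes and do not set the neighbors apart.

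The tested genes most like TNFSF4 over the 7 samples, by the root mean square difference of mean-centred log2 CPM, were PCDHAC1 (0.224), AC008906.1 (0.233) and LACTB (0.237). The root mean square of TNFSF4 itself was 0.768. As they were picked for their likeness to TNFSF4, higher levels with BV6 follow from that choice. Mean levels in untreated and BV6-treated cells were 0.0888 and 0.232 CPM for PCDHAC1 and 2.98 and 7.15 CPM for AC008906.1. LACTB, a mitochondrial protein gene, went from a mean of 21.3 CPM in untreated to 47.4 CPM in BV6-treated cells. For LTB, the ligand with the highest level per length in untreated cells, the nearest genes were AC092681.1 (0.361), TAB3-AS1 (0.399) and VTCN1 (0.484), against its own 1.05.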

How the data were processed

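The data were raw counts per gene for 7 RH30 samples. The counts were deposited by the authors, who mapped stranded, paired-end, poly(A)-selected libraries to GRCh38 with STAR 2.6.1d (submitters' processing notes) and counted reads over a union of the isoforms of each gene of Ensembl release 95. The counting program and its handling of strand and shared reads are not given in the sources used here. Count totals above the stated reads per library, with a surplus of even counts, bear on whether both mates were counted. Counts halved and rounded up were run as an alternative.

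From these counts, edgeR 4.0.16 in R 4.3.3 (quasi-likelihood test glmQLFTest after glmQLFit, condition as the only term, TMM factors, filterByExpr at a min.count of 10) tested 23124 of 57189 genes, with Benjamini-Hochberg adjustment over all of them. An adjusted p below 0.05 was called, and a DEG also had to change by 1 or more on the log2 scale in either direction. Standard errors were derived from the F statistic. Ligands below the filter were fitted among all 43421 genes with any count, and no call rests on that fit. CPM values refer to TMM-normalized totals, and exact permutation tests enumerated all 35 assignments. Intervals of count ratios are exact conditional binomial intervals at 95% and cover counting error only. Positions and exon lengths (the union of all isoforms) come from GENCODE 44, matched by symbol for 36327 genes. The scripts were tested on simulated data.

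All 10 ligands are named, with the lists of other ligands, receptors, cutting enzymes, mRNA decay regulators, signaling complex genes, NF-κB targets and cell markers. In each list the called genes are named or, where there were none, those with the smallest p, plus receptors and enzymes of the ligands. The members and lists were chosen with earlier results of these data known. Alternatives were RLE factors, no filter, 10 counts in every sample, DESeq2 1.42.0, limma-voom (limma 3.58.1), the experiment label as a block, halved counts and leaving out each sample. For ligands below the filter, the block, DESeq2 and leave-one-out fits without the filter were added after seeing the data, as was the promoter search.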

Additional observations from a re-analysis of the deposited data

How the results depend on the processing

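The number of DEGs was 74, and it was 157 with no filter on low counts, 225 with DESeq2 on the same genes, 216 with DESeq2 without the filter, and 37 to 72 when 1 sample was left out. It was lowest without untreated replicate 1 or 3 (37 each). Of the ligands, 1 (TNFSF4) was called by DESeq2 on the same genes, and 0 under all other alternatives. The experiment label was also used as a replicate block, although the labels do not say what a shared label marks. Deviations from the group means correlated by 0.462, 0.438 and 0.0847 within BC13, BC14 and BC25/27, and 4 of 6 samples correlated best with their own label, as a hint from the data. With the replicate block the DEGs numbered 119, or 162 without the unpaired sample, 0 ligands, 1 leukocyte marker (ITGAX, higher with BV6) and 2 RMS markers (CHRND and MYL4, lower) were called, and TNFSF4 had a log2 fold change of 1.32 (adjusted p = 0.265, edgeR). The block also called 4 signaling complex genes and 7 NF-κB targets, where 218 of all 23124 tested genes passed. Those added to the main calls were MAP3K14, the gene of NIK (log2 fold change 0.90, adjusted p = 0.0163, edgeR), and RELB (1.07, adjusted p = 0.0322, edgeR). In the main edgeR fit their adjusted p was 0.307 and 0.556. With no filter, 1 RMS marker was called lower and 1 leukocyte marker higher. NF-κB targets called ranged from 3 to 6 with 1 sample left out. Of 101 alternative fold changes of ligands, 6 turned direction. LTA ranged from -0.79 to 0.11 with 1 sample left out (0.11 without BV6 replicate 3). FASLG, fitted without the filter, ranged from -0.72 to 0.61, and was negative without untreated replicate 2 (-0.24) or 4 (-0.15) and without BV6 replicate 3 (-0.72) or 4 (-0.0721). TNFSF13B ranged from -0.0117 to 1.37 (-0.0117 without BV6 replicate 4). The difference of FASLG on log2(CPM + 0.1) was -0.0092. The causes were not tested. Depth limits the 7 ligands below the filter, and exact tests of 4 against 3 samples cannot pass 0.05.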
